A study of Homo sapiens with 4 samples.

Results

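The NF-kB subunit genes (NFKB1, NFKB2, REL, RELA and RELB) and the genes of 5 proteins of the IkB family (NFKBIA, NFKBIB, NFKBIE, NFKBIZ and BCL3) were read in MV4;11 cells with and without CU-T12-9. These 10 genes were taken by symbol from a deposited table of 56638 gene symbols, which holds all 10, and all 10 passed the filter on low counts that left 14018 genes for testing. MV4;11, an established line from a human acute myeloid leukaemia, carries the KMT2A-AFF1 fusion and a FLT3 internal tandem duplication. The cells, called parental in the labels, received vehicle (DMSO, 2 libraries) or CU-T12-9 (2 libraries) at 1 µg/mL for 24 h, all in RPMI medium and with no genetic change listed. The compound activates the receptor pair TLR1/TLR2 as a synthetic small molecule. The sample labels name DMSO as the vehicle and the treatment protocol names PBS, so which one the control cells received is not settled. The labels do not say whether the 2 libraries of each group stem from different cultures, and the p-values therefore measure only the spread between these libraries, which may be technical.

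NF-kB is a family of dimeric transcription factors that share a Rel homology domain. RELA, REL and RELB carry a transactivation domain, while NFKB1 and NFKB2 encode the precursors p105 and p100, which are processed to the DNA-binding forms p50 and p52. The classical inhibitors encoded by NFKBIA, NFKBIB and NFKBIE hold dimers in the cytoplasm through ankyrin repeats until the IkB kinase complex marks them for degradation, and NFKBIZ and BCL3 encode atypical, nuclear IkB proteins that bind p50 or p52 homodimers on DNA. TLR1/TLR2 signals through MyD88 to the canonical arm of this pathway, and in myeloid cells several of the genes described here are themselves targets of NF-kB.

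Promoter sequence was examined as a description only, and a link to the changes in level was not tested. The RefSeq promoter table (GRCh38.p14, from 250 bases before to 50 bases after each annotated start) held 14 windows for 8 of the 10 members. RELB and NFKBIE are not in the table. The consensus kB motif, searched on both strands, was found in 9 of the 14 windows and in at least 1 window of 7 of the 8 members. Among all 27305 genes in the table, 7.09% held a match in at least 1 window, as did 5.91% of all 35116 windows. NFKB2 had 2 separate matches in each of 2 windows, and RELA had none in either of its windows. A looser kB pattern with free middle bases, which includes every match to the consensus, was in all 14 member windows and in 58.7% of all windows. The stretches around 8 of the 11 separate matches, 1 for each window with a match apart from the second window of NFKBIZ, are shown 5′ to 3′ on the gene's strand because they are what 7 of the 8 members with a window share. Capitals mark the bases of the motif, joined where matches on the 2 strands overlap, and letters are lower case elsewhere. The stretch of NFKB2 at start 2 ends inside that window's other match.
NFKB1, chr4:102501285-102501344, plus strand: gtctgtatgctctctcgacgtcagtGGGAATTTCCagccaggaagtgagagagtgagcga
NFKB2, start 2, chr10:102394446-102394505, plus strand: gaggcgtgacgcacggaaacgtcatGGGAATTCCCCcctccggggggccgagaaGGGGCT
NFKB2, start 3, chr10:102395659-102395718, plus strand: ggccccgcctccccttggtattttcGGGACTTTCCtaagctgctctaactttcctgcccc
REL, chr2:60881502-60881561, plus strand: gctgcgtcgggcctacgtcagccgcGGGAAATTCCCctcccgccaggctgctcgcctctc
NFKBIB, chr19:38899916-38899975, plus strand: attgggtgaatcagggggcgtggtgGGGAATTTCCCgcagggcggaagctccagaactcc
NFKBIZ, chr3:101827742-101827801, plus strand: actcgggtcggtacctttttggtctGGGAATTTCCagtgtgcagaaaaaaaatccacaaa
BCL3, chr19:44748685-44748744, plus strand: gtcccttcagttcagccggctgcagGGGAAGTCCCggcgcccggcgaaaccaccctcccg

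The whole window of NFKBIA, the gene with the highest level under CU-T12-9, is set beside the window of the more downstream RELA start, which has no match.
NFKBIA, chr14:35404700-35404999, minus strand: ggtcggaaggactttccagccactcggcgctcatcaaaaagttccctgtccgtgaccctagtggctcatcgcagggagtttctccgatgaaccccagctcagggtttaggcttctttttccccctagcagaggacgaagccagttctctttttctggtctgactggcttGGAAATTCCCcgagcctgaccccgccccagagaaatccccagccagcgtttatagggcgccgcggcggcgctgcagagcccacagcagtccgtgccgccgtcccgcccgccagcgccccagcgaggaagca
RELA, chr11:65662867-65663166, minus strand: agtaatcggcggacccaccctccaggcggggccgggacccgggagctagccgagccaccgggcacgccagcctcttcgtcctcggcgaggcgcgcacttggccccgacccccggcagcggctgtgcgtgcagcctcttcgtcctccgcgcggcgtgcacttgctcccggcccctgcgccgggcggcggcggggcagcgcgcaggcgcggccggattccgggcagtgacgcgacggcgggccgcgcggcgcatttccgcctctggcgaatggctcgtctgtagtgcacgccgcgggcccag

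The NFKBIA match began 81 bases before the start, the REL match 47 bases before it and the NFKB1 match 49 bases before it. The matches of NFKBIZ lay further out, beginning 223 and 239 bases before the starts of its 2 windows, and the BCL3 match began at base 2 after the start. NFKBIB held its match 28 bases before the downstream of its 2 starts, and is the member with the smallest rise among those called. REL, which also holds a match, had the next smallest at 1.57-fold. A match describes the letters only, and binding was not measured.

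**Figure D1:**
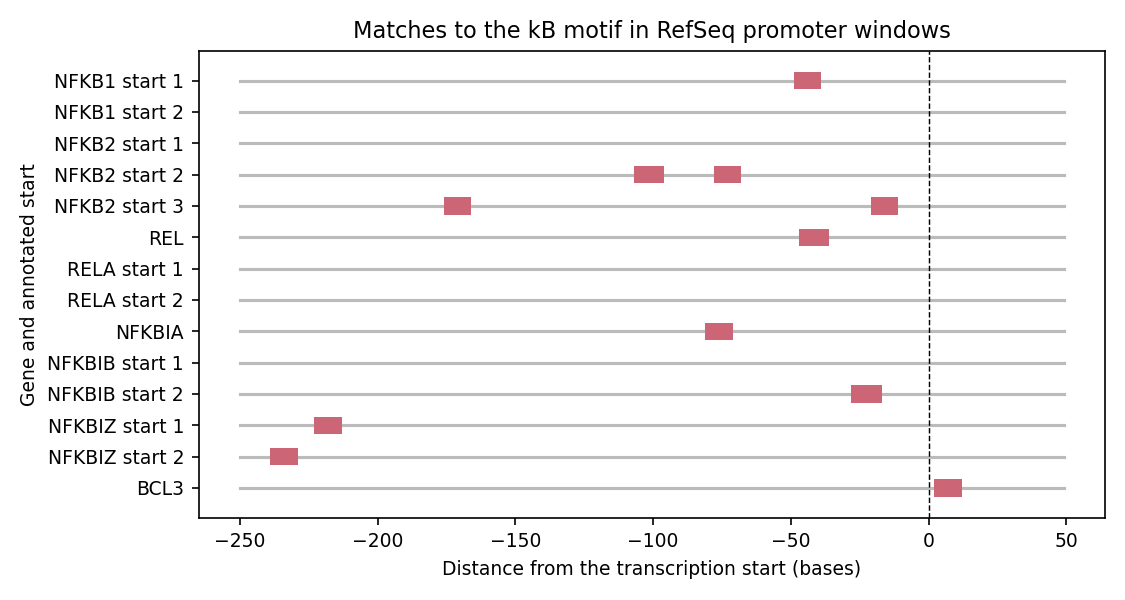
Matches to the consensus kB motif (red blocks) in the RefSeq promoter windows of 8 members, drawn as grey lines against the distance from the annotated transcription start in bases. The 2 windows of RELA hold no match and those of NFKB2 at its starts 2 and 3 hold 2 each.

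The libraries held 23087102 to 25867733 reads, and 1 read was worth 0.0384 to 0.0442 CPM, the read count normalised to the TMM-adjusted library size. The 10 members had between 47 and 8085 reads in a library, so none was near the floor of 3 reads. Log2 CPM correlated across genes at 0.998 and 0.996 within the DMSO and CU-T12-9 pairs and at 0.939 to 0.941 between groups, and the libraries of each pair differed by more than sampling noise (chi-square per degree of freedom 2.42 and 7.03). All 11 myeloid and leukaemia markers looked up were read in every library. By edgeR's test 8 of them were called higher and 3 lower under CU-T12-9, against 32.0% of all tested genes called higher and 33.2% lower. The 3 lower were LYZ, with group means of 2002 CPM under DMSO and 1276 CPM under CU-T12-9, FLT3 (464 and 374 CPM) and CD33 (165 and 125 CPM). ITGAM had the largest change of the list (2.71 and 11.4 CPM), and SPI1 (181 and 279 CPM) and PTPRC (74.7 and 183 CPM) were also among the higher. The summed list, of which LYZ is the largest part, was at 3034 to 3122 CPM under DMSO and 2450 to 2585 CPM under CU-T12-9. The erythroid and platelet markers were at 0 in all 6 cases, as were CD3D, CD3G, EPCAM, KRT19 and PECAM1. Whether a 0 stands for absent RNA or for a gap in the counting was not tested. The summed T and NK cell list went from 15.9 and 16.5 CPM under DMSO to 30.1 and 31.4 CPM under CU-T12-9, nearly all of it NKG7. B cell markers summed to at most 1.11 CPM in a library, and the epithelial and stromal list, mainly KRT8 and KRT18, to at most 6.26 CPM. The part of these genes in the results below was not tested. In RNA from whole cultures, a change in the share of cells that express a gene and a change in RNA per cell cannot be told apart.

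Of the 10 members 9 were higher under CU-T12-9 and none was lower, RELA being the one that did not pass (edgeR quasi-likelihood test, Benjamini-Hochberg adjusted over all 14018 genes). Across all genes tested, 32.0% were called higher and 65.2% were called in either direction, so a call by itself is common in this comparison. Both CU-T12-9 libraries lay above both DMSO libraries for all 10 members, RELA included, against 40.5% of all genes, and 82.3% of all genes had groups that did not overlap in either direction. The sizes of the rises ran from 1.19-fold for NFKBIB to 35.1-fold for NFKBIZ, with a median log2 fold change of 2.65 over the 10 members against 0.00 over all genes. Tested against a fold of 2 instead of no change, a test added after the data were seen, 7 members were higher and none lower, against 7.23% of all genes higher and 5.55% lower. REL and NFKBIB, beside RELA, were the members that did not pass it.

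**Figure D2:**
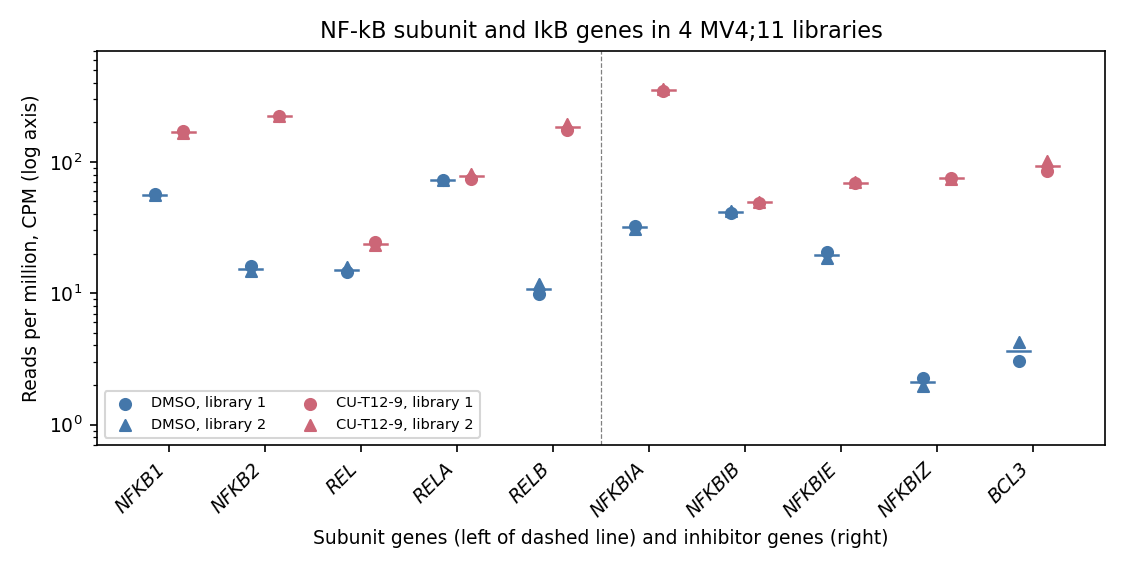
Normalised read counts (CPM, log axis) of the 5 subunit genes and the 5 inhibitor genes in each of the 4 libraries, with circles for library 1, triangles for library 2 and short lines for group means. NFKBIZ went from a mean of 2.11 to 74.6 CPM, while the RELA points of the 2 groups lie close together, at means of 72.6 and 77.5 CPM.

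The subunit genes fell into 3 patterns. RELB and NFKB2, whose products form the RELB:p52 dimer of the non-canonical arm, rose most. RELB was at 9.79 and 11.8 CPM under DMSO and at 176 and 194 CPM under CU-T12-9, a 17.2-fold rise (95% interval 14.8 to 19.8; log2 fold change 4.10, SE 0.09, edgeR adjusted p = 2.56e-09). NFKB2 was at 16.0 and 14.8 CPM and then at 221 and 223 CPM, a 14.4-fold rise (95% interval 13.1 to 15.9; log2 fold change 3.85, SE 0.06, edgeR adjusted p = 6.71e-10). Of all genes tested, 1.37% rose more than RELB and 1.56% more than NFKB2. The intervals of these 2 fold changes overlapped, and a difference between the 2 genes was not tested.

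NFKB1, the precursor of p50, rose to a lesser extent. Its levels were 56.5 and 56.1 CPM under DMSO and 173 and 167 CPM under CU-T12-9, a 3.01-fold rise (95% interval 2.77 to 3.28; edgeR adjusted p = 1.73e-08). REL, the c-Rel subunit prominent in lymphoid and myeloid cells, went from 14.4 and 15.8 CPM to 24.5 and 23.1 CPM, or 1.57-fold (95% interval 1.37 to 1.81; edgeR adjusted p = 1.61e-04). Among all genes, 6.25% rose more than NFKB1, and REL ranked 2528 of 14018 by size of rise.

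RELA, the p65 subunit of the classical heterodimer, was at 72.1 and 73.1 CPM under DMSO and at 73.7 and 81.3 CPM under CU-T12-9. The groups did not overlap, but the lower CU-T12-9 library lay only just above the DMSO libraries. Its fold of 1.07 had a 95% interval of 0.968 to 1.18 and did not pass (log2 fold change 0.09, SE 0.06, edgeR adjusted p = 0.213). The log2 fold change was 0.20 without the first CU-T12-9 library and 0.0219 without the second. RELA passed without the first, but a fit with a lone CU-T12-9 library takes its spread from the DMSO pair only. That pair was the closer for RELA, with an SD of 0.996% of the mean against 6.89% under CU-T12-9. In the full fit the upper end of the RELA interval lay below the lower end of those of the other 4 subunit genes.

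Among the classical inhibitors the 3 genes differed widely. NFKBIA, which encodes IkB-alpha, the rapidly resynthesised inhibitor that ends an NF-kB response, was at 32.4 and 31.0 CPM under DMSO and at 346 and 355 CPM under CU-T12-9. The rise was 11.1-fold (95% interval 10.1 to 12.1; log2 fold change 3.47, SE 0.06, edgeR adjusted p = 6.71e-10). NFKBIE, the gene of IkB-epsilon, went from 20.6 and 18.4 CPM to 68.5 and 70.6 CPM, a 3.56-fold rise (95% interval 3.18 to 3.99; edgeR adjusted p = 5.13e-08). These groups were far apart compared with the spread within each pair.

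NFKBIB, the gene of IkB-beta, went only from 40.7 and 41.9 CPM to 48.9 and 49.5 CPM. The 1.19-fold rise (95% interval 1.08 to 1.31; log2 fold change 0.25) passed the test (edgeR adjusted p = 0.00491). The log2 fold change was 0.22 without the first DMSO library and 0.26 without the second. The call was lost without the first. A fit with a lone DMSO library takes its spread from the CU-T12-9 pair only. That pair was the closer for NFKBIB, with an SD of 0.895% of the mean against 1.97% under DMSO. In the GENCODE annotation NFKBIB shares 40 exon bases, 1.88% of its exon length, with SIRT2 on the other strand, and the sources used here do not give the strand setting of the counting. SIRT2 had means of 95.9 CPM under DMSO and 111 CPM under CU-T12-9, a log2 fold change of 0.20 (edgeR adjusted p = 0.0069). The part of shared reads in the NFKBIB value was not tested.

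The atypical nuclear inhibitors showed the steepest rises of the 10, from the lowest CPM not adjusted for length. NFKBIZ, which encodes IkB-zeta, a cofactor for secondary response genes, was at 2.26 and 1.96 CPM under DMSO (59 and 47 reads) and at 75.8 and 73.5 CPM under CU-T12-9. The rise was 35.1-fold (95% interval 30.2 to 40.8; log2 fold change 5.13, SE 0.10, edgeR adjusted p = 1.01e-09), and 0.870% of all genes rose more. BCL3, a partner of p50 and p52 homodimers, went from 3.07 and 4.22 CPM (80 and 101 reads) to 85.6 and 101 CPM. Its rise was 25.7-fold (95% interval 20.8 to 31.8; log2 fold change 4.69, SE 0.13, edgeR adjusted p = 8.01e-09). BCL3 was the least reproducible member, with an SD of 22.2% of the mean under DMSO and 11.8% under CU-T12-9, against a 25.7-fold difference.

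Levels of different genes were compared per kb of the principal GENCODE transcript, as CPM per kb. Under DMSO the order on this length began with NFKBIB at 35.6 ± 0.704, RELA at 26.9 ± 0.268, NFKBIA at 20.3 ± 0.606 and NFKB1 at 13.8 ± 0.0666 CPM per kb (SD, n = 2). NFKBIE followed at 7.55 ± 0.592, and NFKB2 at 4.96 ± 0.279 and RELB at 4.71 ± 0.625 CPM per kb did not differ beyond their spread. BCL3, REL and NFKBIZ were lowest, at 1.79 ± 0.398, 1.34 ± 0.0899 and 0.539 ± 0.0545 CPM per kb.

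Under CU-T12-9 the order of these levels changed. NFKBIA was first at 225 ± 4.22 CPM per kb, ahead of RELB at 80.6 ± 5.60 and NFKB2 at 71.7 ± 0.502 CPM per kb. BCL3 at 45.8 ± 5.40, NFKBIB at 42.5 ± 0.380 and NFKB1 at 41.6 ± 1.11 CPM per kb overlapped from one to the next in the order, as did RELA at 28.7 ± 1.98 and NFKBIE at 26.9 ± 0.580 CPM per kb, below them. NFKBIZ stood at 19.0 ± 0.426 and REL at 2.11 ± 0.0873 CPM per kb. Several places in the order depend on the length used. Under DMSO RELA ranked 1 and NFKBIB 2 both per coding length and per merged exons, and NFKB2 ranked 8 per coding length rather than 6. REL, whose principal transcript has 11255 bases of which 1857 are coding, ranked 6 per coding length rather than 9. Under CU-T12-9 NFKBIB ranked 8 per coding length and 7 per merged exons rather than 5, while NFKBIA, RELB, NFKB2 and BCL3 kept ranks 1 to 4 and REL rank 10 on all 3 lengths.

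The make-up of the subunit transcripts shifted from RELA and NFKB1 to RELB and NFKB2. As a share of the 5 subunit genes per kb of transcript, RELA made up 52.1% and 51.9% in the DMSO libraries and 12.4% and 13.1% in the CU-T12-9 libraries. RELB went from 8.33% and 9.88% to 34.9% and 36.8%, and NFKB2 from 10.1% and 9.14% to 32.5% and 31.4%. NFKB1 went from 27.0% and 26.4% to 19.3% and 17.8% although its own level rose. REL made up 2.60% ± 0.142 under DMSO and 0.941% ± 0.0677 under CU-T12-9 (SD, n = 2). For each of the 5 shares the groups did not overlap, which in a two-sided exact permutation test over 2 and 2 libraries gives p = 0.333, the smallest this design allows.

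Among the inhibitors the share of NFKBIA went from 31.5% and 30.3% to 63.0% and 62.2%. NFKBIB, the largest under DMSO at 54.1% ± 1.19, made up 11.8% ± 0.228 under CU-T12-9 (SD, n = 2). BCL3 went from 2.28% and 3.15% to 11.9% and 13.6%, and NFKBIZ from 0.875% and 0.761% to 5.49% and 5.11%. The level of NFKBIA per kb was 0.778 and 0.736 times that of RELA under DMSO and 8.13 and 7.57 times under CU-T12-9. The summed inhibitor genes stood at 1.29 and 1.26 times the summed subunit genes under DMSO and at 1.60 times in both CU-T12-9 libraries. That ratio moved with the length used, from 1.06 ± 0.0268 to 1.84 ± 0.00375 per coding length (SD, n = 2), and was higher under CU-T12-9 on each of the 4 scales tried. The inhibitor sum includes NFKBIZ and BCL3, whose products are nuclear and whose shares of that sum rose as given above. A ratio without these genes was not taken, so the rise of the ratio cannot be read as one of the classical inhibitors alone. Transcript shares say nothing of protein, and p105 and p100, counted here with the subunits, carry ankyrin repeats of their own.

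**Figure D3:**
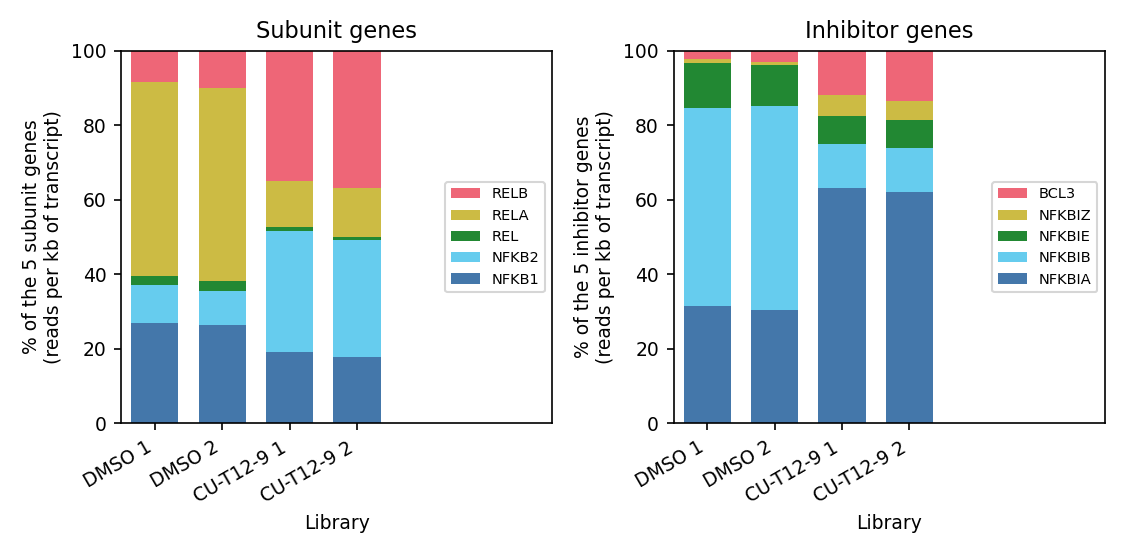
Share of each gene among the 5 subunit genes (left) and among the 5 inhibitor genes (right), in percent of reads per kb of transcript, for each of the 4 libraries. RELA takes 52.1% and 51.9% of the subunit bar under DMSO and 12.4% and 13.1% under CU-T12-9, and NFKBIA grows from 31.5% and 30.3% to 63.0% and 62.2% of the inhibitor bar.

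The genes of the kinase complex that releases NF-kB from the classical inhibitors showed changes no larger than that of RELA, the least changed member. CHUK, IKBKB and IKBKG, the 3 subunits of the IkB kinase complex, had log2 fold changes of -0.04, 0.09 and 0.08 (SE 0.06, 0.07 and 0.09), and none passed the test (edgeR adjusted p = 0.545, 0.261 and 0.416). Of the 16 kinases and activators listed 9 rose and 2 fell, against 32.0% of all genes called higher and 33.2% lower, with a median log2 fold change of 0.20. MAP3K8, the kinase held by p105 that feeds the ERK pathway, rose most, by 1.99 on the log2 scale (SE 0.17), from 3.14 ± 0.832 CPM to 12.5 ± 1.25 CPM (SD, n = 2). The adaptor gene TANK rose by 1.51 and IKBKE, an IkB kinase-related gene, by 0.69 on the log2 scale. MAP3K14, the NIK kinase at the head of the non-canonical arm, rose by 0.67 on the log2 scale (SE 0.16), from 8.06 ± 2.01 CPM to 12.9 ± 1.11 CPM (by edgeR's test adjusted p = 0.00533). MAP3K7 and TAB1, the TAK1 kinase and a partner, fell by 0.20 and 0.17 in log2 units. Both calls were lost when either DMSO library was left out.

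The ubiquitin machinery that degrades phosphorylated IkB was described by 11 genes. Of these 6 fell and 2 rose, against 33.2% of all tested genes called lower and 32.0% higher, and the median of their log2 fold changes was -0.18. NEDD8, the cullin modifier, fell by 0.51 on the log2 scale, and the ligase subunit gene RBX1 by 0.48 and the cullin exchange factor gene CAND1 by 0.39. UBE2D1, a ubiquitin-conjugating enzyme, rose by 1.05, while BTRC, the substrate receptor for IkB-alpha, had a log2 fold change of 0.25 (edgeR adjusted p = 0.042). The list had 1 gene called higher in place of 2 with DESeq2, without scaling, without a filter, with the replicate block and without either DMSO library.

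Of the 4 other IkB-like or IkB-binding genes 2 rose and 1 fell, where 65.2% of all tested genes were called. NFKBIL1 rose by 0.78 and NKIRAS2 by 0.43 on the log2 scale, while NKIRAS1 fell by 0.41. The NKIRAS1 call was lost when either DMSO library was left out. NFKBID, the gene of the third atypical nuclear inhibitor, IkBNS, was at 9.52 ± 0.651 CPM under DMSO and 10.01 ± 2.84 CPM under CU-T12-9 and its libraries overlapped (log2 fold change 0.08, SE 0.18, edgeR adjusted p = 0.724). It thus stood apart from NFKBIZ and BCL3 in size, though a difference between genes was not tested. Among 15 nuclear partners 9 rose and 5 fell, against 32.0% of all tested genes called higher and 33.2% lower, and their median log2 fold change was 0.26. The coactivator genes NCOA3 and CREBBP rose by 1.52 and 0.83 and PDLIM2, a ligase for nuclear RELA, by 0.70 on the log2 scale. NKRF, the NF-kB repressing factor, fell by 0.72.

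Of 32 textbook target gene names looked up, 31 are in the table, where CXCL8 is listed as IL8, and 27 were tested. Of these 25 rose, against 32.0% of all tested genes, PLAU fell by 0.52 on the log2 scale, and PTGS2 did not pass (log2 fold change 0.92, edgeR adjusted p = 0.0542). Target genes nearly unread under DMSO could pass the filter only if they rose, so both the count and the median below favour rises. The median log2 fold change of the 27 tested was 3.33. The largest fitted rises were in EBI3, BIRC3, CD40 and CCL4, at 10.20, 8.55, 6.91 and 6.40 on the log2 scale. The sizes rest on few DMSO reads, 3 and 4 for EBI3, 5 and 3 for BIRC3 and 10 and 4 for CD40. For CCL4 the DMSO libraries summed to 3 reads and the CU-T12-9 libraries to 253, a depth-adjusted ratio of 91.6 (exact 95% interval 31.0 to 447, counting error only), and its reads may be split with near-identical copies.

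**Figure D4:**
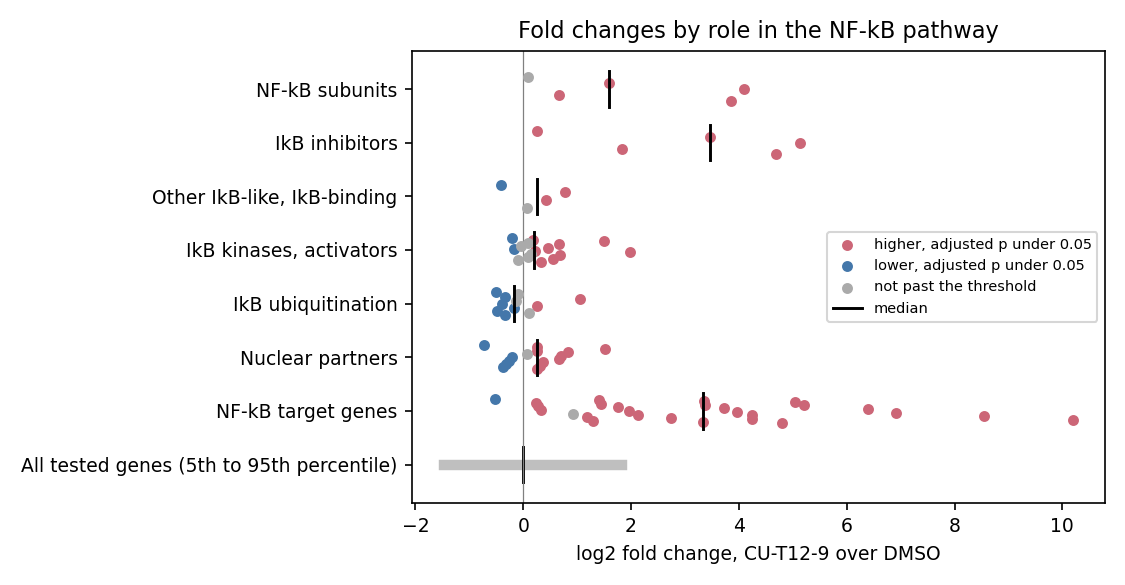
Log2 fold change of CU-T12-9 over DMSO for each tested gene, grouped by role in the pathway, with red for higher, blue for lower and grey for genes not past the threshold. Black lines are medians, and the grey bar spans the 5th to 95th percentile of all tested genes, -1.47 to 1.83. The medians are 1.59 for the subunits, 3.47 for the inhibitors, 0.20 for the kinases and 3.33 for those target genes that passed the filter.

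The genes whose pattern over the 4 libraries lay closest to that of NFKBIA, by Euclidean distance between centred log2 CPM values (with 0.5 CPM added, over genes averaging 5 CPM or more), were TNFAIP2, PAQR8, AOC1, GBP5 and ADA, at distances of 0.123 to 0.149. TNFAIP2, a gene induced by tumour necrosis factor, went from 77.9 ± 0.515 to 811 ± 35.6 CPM, and ADA, adenosine deaminase, from 84.9 ± 4.54 to 873 ± 17.1 CPM (SD, n = 2). With 4 libraries in 2 groups, this closeness reflects little beyond a like fold change.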

How the data were processed

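The authors deposited 1 table for the 4 libraries with the read count of each gene symbol, as whole numbers without normalisation. Per the submitters' processing notes, the tools were FastQC 0.11.7, TopHat2 and featureCounts 1.5.2, with the GRCh37 build. For the annotation, the strand setting and reads mapping to several places, nothing was given in the sources used here. Counts were fitted with edgeR 4.0.16 in R 4.3.3 (filterByExpr, TMM, glmQLFit and glmQLFTest with group as the only term), with Benjamini-Hochberg adjustment over 14018 genes and a threshold of 0.05. Each SE is the ratio of the log2 fold change to the root of the F statistic, and intervals are 95%. CPM use TMM-adjusted library sizes, and means ± SD are over 2 libraries. Intervals and floors cover counting error or library spread only. DESeq2 1.42.0, limma-voom 3.58.1, other scalings, filters, a replicate block and leaving out each library were alternatives. The fit was tested on simulated data with 14018 genes, where 98% of genes changed 2-fold and 28% of those changed 1.2-fold were recovered, with 10 false calls among 167. There only 50 genes were changed at each fold, evenly up and down, and every gene in both groups had 1 spread (coefficient of variation 5.00%). In the real libraries 65.2% of genes were called and the pairs differed in spread, so the simulated rates need not hold for them. Lengths came from GENCODE 29 and promoters from RefSeq, both of GRCh38, matched by symbol, and no coordinate was moved between builds. The members, the lists and the tests were chosen with earlier results of these data known. The text names all members, up to 4 called genes with the largest change in each other list, the IkB kinase complex genes and the 5 genes nearest NFKBIA. Genes beside these (MAP3K7, TAB1, BTRC, NFKBID, PLAU, PTGS2, SIRT2 and the cell markers) were named after their values were seen. Protein sequences were not analysed here.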

Additional observations from a re-analysis of the deposited data

How the results depend on the processing

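Of the 10 members, 8 kept their direction and call under all 11 other settings tried from the outset. RELA lay between 0.0219 and 0.20 on the log2 scale over the leave-one-out fits and passed without the first CU-T12-9 library, and NFKBIB lay between 0.22 and 0.29 and did not pass without the first DMSO library. A lone library of a group is assumed there to vary like the other group. Tested against a fold of 2, added once the data had been seen, the calls came to 1013 higher and 778 lower, and REL (log2 fold change 0.65) and NFKBIB (0.25) did not pass. Of the IkB kinases and activators, the number called lower was 1 with DESeq2-type scaling, 0 with the DESeq2 test and 0 to 2 when a library was left out. In the IkB ubiquitination list the number called higher was 1 without scaling, with DESeq2, without a filter and with the replicate block, and 1 to 3 when a library was left out. The 1 lower call among the other IkB-like genes became 0 with DESeq2, and was 0 to 1 when a library was left out. The looser motif was found in all 8 members with a window and in 61.7% of all genes with one, against 7 members and 7.09% of genes for the consensus. The changes in subunit shares and in the inhibitor to subunit ratio had the same sign per coding length, per merged exons (added later) and in raw reads. Deviations of same-numbered libraries correlated at 0.0099 across genes, and with the replicate block 4488 genes were higher and 4655 lower. No shared deviation was thus seen, but the labels do not say whether same-numbered libraries were handled together. The cause of the lost calls was not tested.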
